A study of Mus musculus with 22 samples.

Results

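The genes described here are the axon guidance ligands and receptors of the mouse retina and choroid. They comprise the netrins with Dcc, Neo1 and the Unc5 receptors, the Slits with the Robo receptors, the semaphorins of classes 3 to 7 with the plexins, and the ephrins with the Eph receptors. Members were taken by symbol and protein-coding biotype from both deposited count tables, without reference to their values, and numbered 67 of 54532 rows, 34 ligands and 33 receptors in 15 families. Of these, 66 had enough counts to be tested in the wild-type table, where Plxnb3 did not, and 67 in the Rag2 table.

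The samples were extracts of retina with choroid from adult mice, with controls matched in age. The labels give no age with a unit. Their protocol text puts a range of 6 to 8 before the word adult, and whether this counts mice or gives an age is not stated. Laser burns were used to induce choroidal neovascularisation (CNV), in which vessels of the choroid grow through the barrier beneath the retina. Wild-type C57BL/6J mice gave 4 control libraries without CNV and 12 after the laser, 4 from each of days 3, 7 and 14. Rag2-/- mice (Rag2 KO), which lack T and B cells, and Rag2-/-γc-/- mice (Rag2 gc KO), which also lack the common gamma chain needed for natural killer cells, gave 3 libraries each, all at day 3 after the laser. The series set out to follow natural killer cells in this model. There was no Rag2 library without laser, and the controls carry no deletion. The title of control replicate 4 gives no CNV while its treatment tag gives laser, and it was kept as a control. The labels do not tie the libraries to separate animals, so the p-values below measure the spread between libraries, which may be technical.

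Axon guidance molecules steer growing axons by attraction and repulsion. Netrins attract axons through Dcc and repel them when Unc5 receptors take part, Slits repel through Robo receptors, and semaphorins signal mostly through plexins, the secreted class 3 with neuropilin coreceptors. Ephrins are bound to membranes and signal into both cells of a contact, and graded EphA and EphB signals order the projection of retinal ganglion cells to the brain. Several of these systems also act on vessels, such as Sema3e with Plxnd1 and Slit2 with its Robo receptors, and in epithelia, such as Efna1 with Epha2.

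Among the receptors, Dcc, Epha6, Robo2, Ephb1 and Plxnc1 fell at day 3 and day 7, and Epha2 and Plxnd1 rose at day 3. The promoters of Robo2, Ephb1, Plxnc1 and Epha2 are shown as examples of these. Each is the 250 bases before the RefSeq transcription start on GRCm38.p6, the mm10 build, printed 5′ to 3′ on the strand of the gene, with GC boxes (GGGCGG on either strand) in capitals. Of the 67 members, 57 had a window in the set of promoter sequences used here. The windows lie at chr16:74411826-74412075 (minus strand) for Robo2, chr9:102354694-102354943 (minus) for Ephb1, chr10:94944846-94945095 (minus) for Plxnc1 and chr4:141300971-141301220 (plus) for Epha2.
Robo2: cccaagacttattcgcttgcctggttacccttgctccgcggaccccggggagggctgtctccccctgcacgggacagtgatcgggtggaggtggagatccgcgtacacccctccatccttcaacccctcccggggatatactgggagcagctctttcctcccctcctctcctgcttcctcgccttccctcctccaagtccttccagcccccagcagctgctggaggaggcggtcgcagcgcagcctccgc
Ephb1: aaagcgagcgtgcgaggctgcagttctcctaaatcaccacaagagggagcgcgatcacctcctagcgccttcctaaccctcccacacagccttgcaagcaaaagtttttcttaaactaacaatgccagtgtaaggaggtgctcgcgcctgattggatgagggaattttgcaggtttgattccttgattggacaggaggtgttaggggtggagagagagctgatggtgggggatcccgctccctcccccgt
Plxnc1: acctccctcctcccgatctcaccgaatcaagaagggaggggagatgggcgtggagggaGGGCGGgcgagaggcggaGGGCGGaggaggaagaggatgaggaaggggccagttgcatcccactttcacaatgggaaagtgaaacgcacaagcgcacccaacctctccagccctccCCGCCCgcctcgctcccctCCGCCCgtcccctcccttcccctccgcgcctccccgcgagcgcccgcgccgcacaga
Epha2: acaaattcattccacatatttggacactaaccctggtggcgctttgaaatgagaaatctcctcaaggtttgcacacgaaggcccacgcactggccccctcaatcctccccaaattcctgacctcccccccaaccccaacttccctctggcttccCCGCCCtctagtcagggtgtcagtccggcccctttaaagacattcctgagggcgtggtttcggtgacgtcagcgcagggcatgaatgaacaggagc

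The GC box occurred 4 times in the Plxnc1 window and 1 time in that of Epha2, and was not found in those of Robo2 and Ephb1, while 32.7% of 32851 promoter windows of this length held at least 1. Searches on both strands for an AP-1 site (TGANTCA), a STAT site (TTCNNNGAA) and the core bound by the photoreceptor factors Crx and Otx2 (TAATCC) found no match in these 4 windows. These motifs occurred in 6.75%, 7.02% and 6.25% of all windows. The motifs do not overlap one another in their letters, and a match or its lack is a description of these letters only.

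Total counts were 15033983 to 16848254 per wild-type library and 27227847 to 30315086 per Rag2 library. Transcripts of neighbouring eye tissue varied among the wild-type libraries. Summed lens markers (13 genes) ran from 167 to 12980 CPM (counts scaled to a common library size) in control, 25310 to 50458 at day 3, 6.64 to 34128 at day 7 and 624 to 139442 at day 14, where replicate 1 was highest. Summed cornea and conjunctiva markers (12 genes, of which Sprr1b was at 0 in the controls) ran from 2444 to 7363 CPM in control and reached 32582 at day 3, 25655 at day 7 and 19743 at day 14, against 12.5 to 21.7 CPM in the Rag2 libraries. Values touching a member are given beside it, and each library is named where it changes a result.

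In control tissue the members differed widely in level. On a per-length scale (CPM per kilobase, mean ± SD, n = 4), the secreted semaphorin Sema3f was highest at 48.5 ± 3.19, followed by the plexins Plxnb2 at 29.0 ± 5.29 and Plxnb1 at 24.3 ± 1.79 and the membrane-anchored semaphorin Sema7a at 23.8 ± 2.89. Plxnb1 and Sema7a did not differ beyond their spread. The Rag2 libraries held far fewer cornea and conjunctiva markers than these controls. There Plxnb2 stood at 14.7 to 18.1 CPM per kilobase, Plxnb1 at 12.2 to 17.7 and Sema7a at 19.2 to 31.2. The tables were normalised apart, and the part of other tissue in the control levels was not tested. In the other families the highest control levels per kilobase were 16.9 ± 1.0 for Unc5a, 12.9 ± 1.199 for Sema4g, 12.6 ± 0.520 for Epha8, 11.7 ± 0.49 for Neo1, 11.2 ± 1.78 for Sema6b, 7.88 ± 0.628 for Ephb6, 7.67 ± 0.902 for Efnb3, 7.46 ± 1.196 for Ntn4, 4.82 ± 0.392 for Slit2, 4.02 ± 0.253 for Efna5, 3.63 ± 0.0477 for Robo2 and 2.51 ± 0.457 for Sema5b. Dcc stood at 1.09 ± 0.140 and was 55th in order among the 67. Summed over members, the plexins (78.9 CPM per kilobase) and class 3 semaphorins (67.0) were the most abundant families, and the Robo receptors (6.10) and class 5 semaphorins (4.6) the least.

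**Figure D1:**
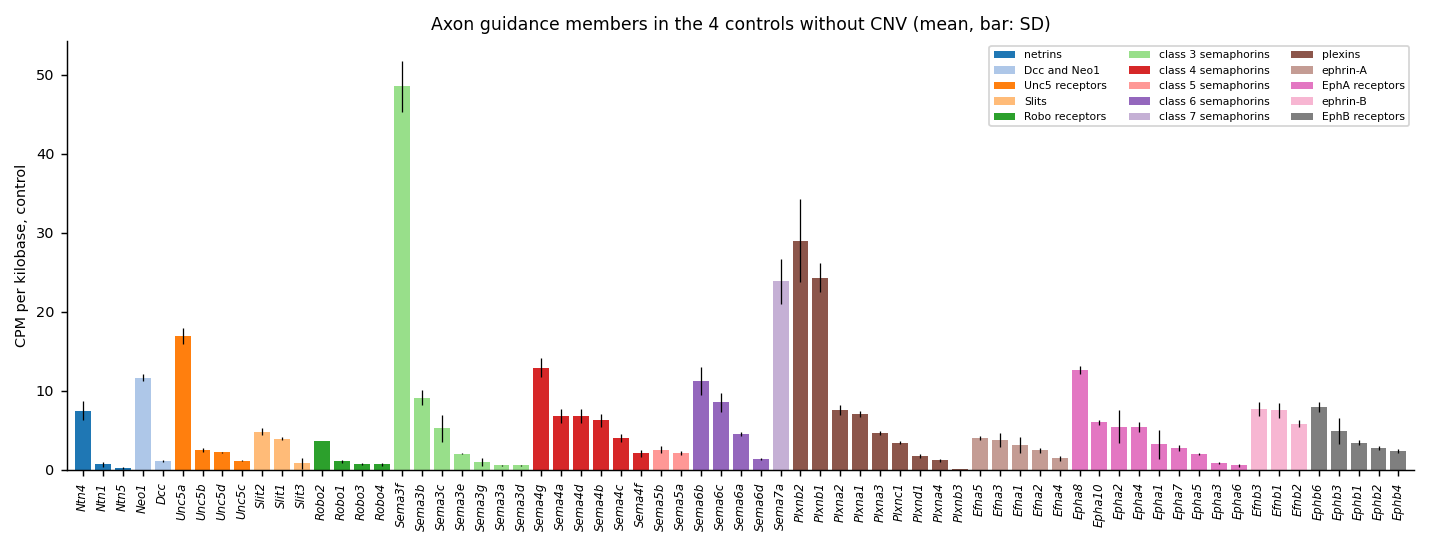
Mean control level of each of the 67 members in CPM per kilobase (bar: SD, n = 4 libraries), grouped by family. Sema3f at 48.5 and Plxnb2 at 29.0 stand highest, and Dcc at 1.09 is among the lower members.

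Against control, 10 of 66 tested members were called at day 3 (edgeR quasi-likelihood test, adjusted p under 0.05), 15.2% against 14.7% of all 18657 tested genes. Of these, 3 rose (Epha2, Efna1 and Plxnd1) and 7 fell (Dcc, Epha6, Slit1, Sema3c, Robo2, Plxnc1 and Ephb1), against 6.97% and 7.77% of all genes in these directions. At day 7, 9 members fell, 13.6% of the members against 10.5% of all genes called and 6.90% called lower. These were Dcc, Epha6, Slit1, Robo2, Plxnc1, Sema3e, Sema3c, Ephb1 and Ephb2, and no member rose in edgeR at day 7, against 3.62% of all genes. In edgeR the share of members called in either direction was near the background at day 3, while DESeq2 called 13 of 66 against 25.7% of all genes. At day 7 the members' share was above the background among lower calls and below it among higher calls, and whether these shares differ was not tested. The 3 comparisons with control share the same 4 control libraries.

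The median log2 fold change of the members was -0.19 at day 3, -0.22 at day 7 and -0.22 at day 14, beside 0.01, 0.03 and 0.04 over all tested genes. The receptors had medians of -0.29, -0.39 and -0.29, and the ligands 0.03, -0.07 and -0.06. At day 3, 2 receptors rose and 5 fell of 32 tested, while 1 ligand rose and 2 fell of 34. Over all tested genes, 6.97% rose and 7.77% fell at day 3. At day 7, 6 of 32 receptors and 3 of 34 ligands fell, beside 6.90% of all genes. Whether receptors and ligands differ was not tested.

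**Figure D2:**
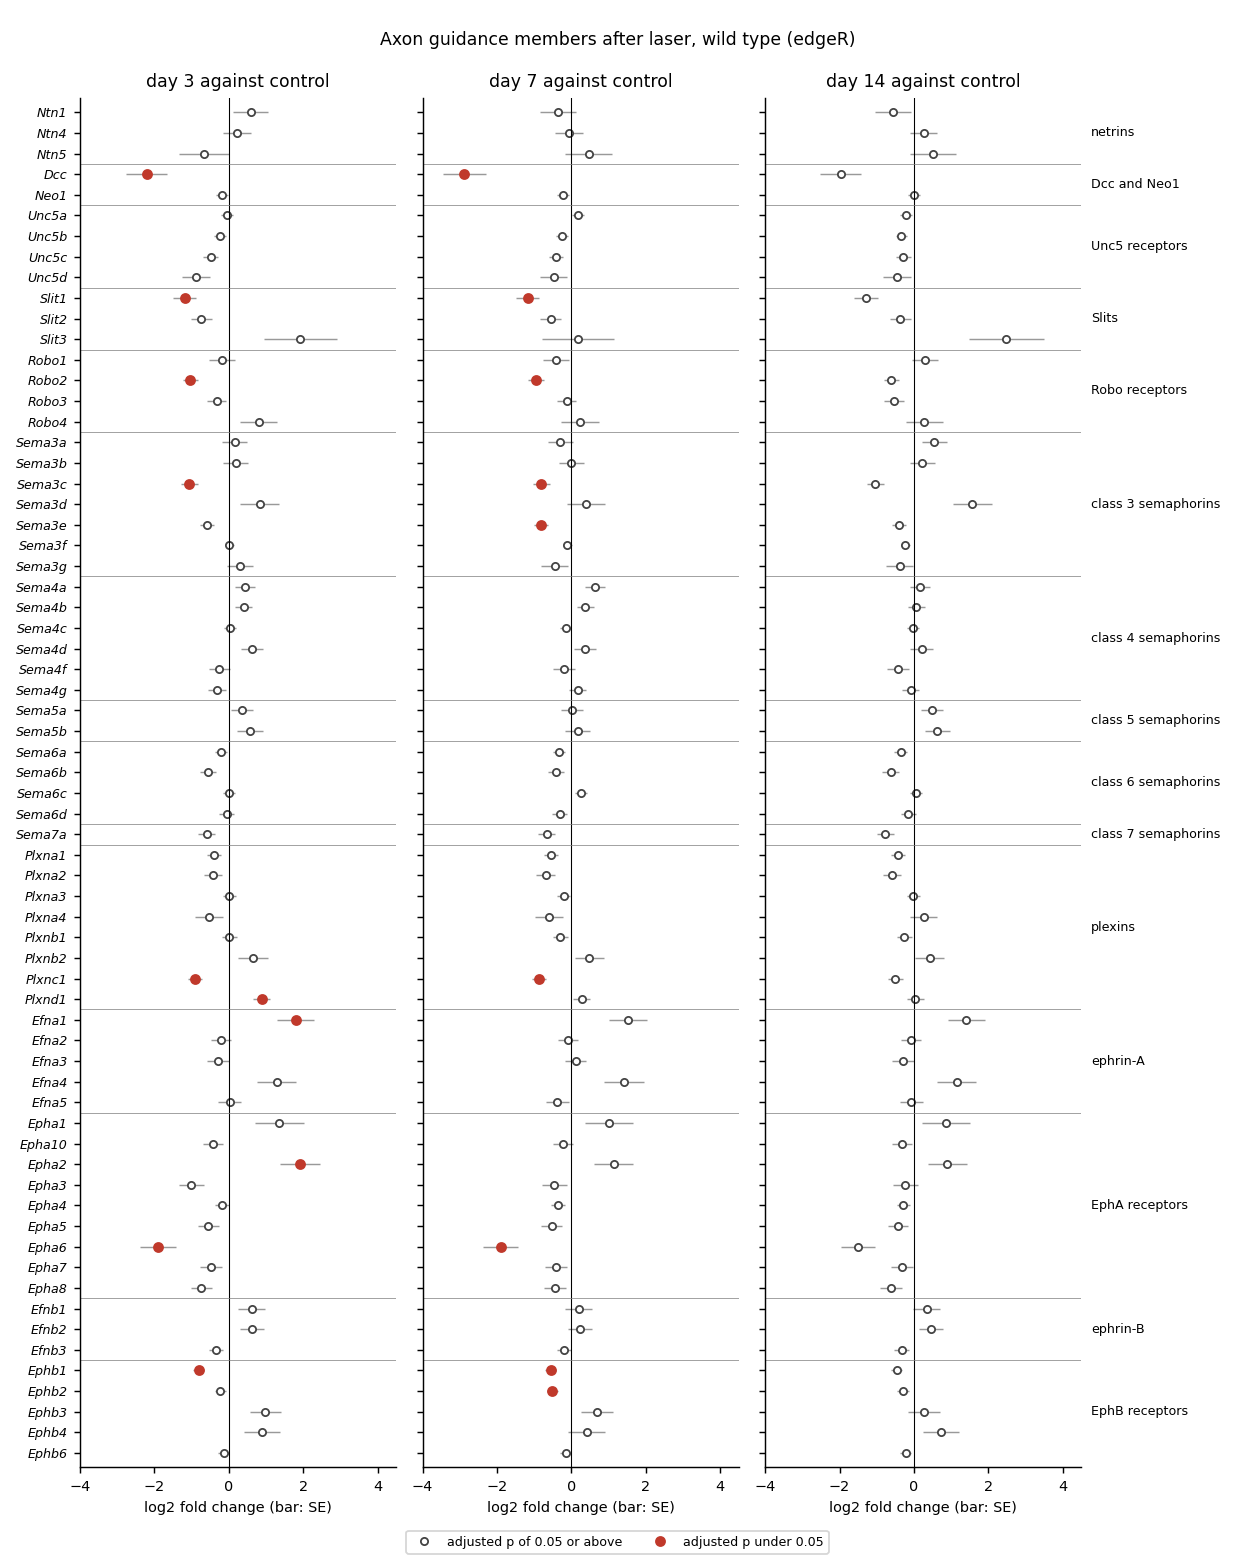
Log2 fold change (bar: SE) of the 66 tested members at day 3, day 7 and day 14 against control, by family, with filled points for an adjusted p under 0.05 in edgeR. There are 10 filled points at day 3, 9 at day 7, all on the lower side, and 0 at day 14.

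Dcc, the attractive netrin receptor, had the deepest fall of the members. Its level was 9.34, 9.05, 9.66 and 7.15 CPM in the controls, 2.63, 2.78, 0.861 and 1.31 at day 3, 0.379, 0.515, 2.19 and 1.66 at day 7, and 1.16, 3.99, 0.846 and 2.92 at day 14. Each of the 12 libraries after the laser lay below each control, with the widest scatter at day 14. The log2 fold change was -2.21 (SE 0.55, adjusted p = 0.0242 in edgeR) at day 3, a 4.62-fold lower level, and -2.88 (SE 0.57, adjusted p = 0.0130) at day 7, 7.34-fold lower. At day 14 it was -1.97 (SE 0.54) and missed the threshold at an adjusted p of 0.0781 in edgeR. In the Rag2 tables, at day 3 after the laser, Dcc stood at 4.26, 4.12 and 4.005 CPM in Rag2 KO and 4.55, 3.39 and 4.74 CPM in Rag2 gc KO. These values lie between those of the wild-type controls and the wild-type day 3 libraries, but each table was normalised on its own and strain is confounded with table, so the tables were not tested against each other.

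Neo1, the netrins and the Unc5 receptors were not called against control in edgeR. Neo1, the Dcc paralogue that also binds repulsive guidance molecules, stood at 102 ± 4.30 CPM in control and 89.1 ± 11.3 at day 3 (SD, n = 4). Among the netrins, Ntn1 had a mean of 4.26 CPM in control and 6.40 at day 3, with an adjusted p of 0.364 in edgeR. Ntn4, a laminin-like netrin of basement membranes, stood at 27.9 ± 4.47 CPM in control and 32.5 ± 6.27 at day 3. The Unc5 receptors, which turn the netrin response to repulsion, had medians of -0.37, -0.33 and -0.31 over their 4 members on days 3, 7 and 14. Unc5a, the most abundant of them, stood at 70.6 ± 4.17 CPM in control and 67.9 ± 6.66, 80.02 ± 22.8 and 61.1 ± 6.85 CPM on days 3, 7 and 14. In the same family Unc5c lay below each control in all 12 libraries after the laser, at 20.1 to 23.4 CPM in control and 10.3 to 19.8 CPM after it, without being called.

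In the Slit and Robo system, 1 ligand and 1 receptor were called, both lower at day 3 and day 7. The repulsive ligand Slit1 stood at 22.1, 23.2, 22.7 and 25.02 CPM in control, 10.96, 14.003, 6.82 and 9.10 at day 3, and 7.90, 9.60, 10.9 and 12.6 at day 7. At day 14 Slit1 was at 4.12, 13.7, 6.83 and 13.3 CPM. No library after the laser reached a control. In edgeR Slit1 had a log2 fold change of -1.19 (SE 0.31, adjusted p = 0.0294) at day 3 and -1.18 (SE 0.31, adjusted p = 0.0331) at day 7. At day 14 it was -1.29 (SE 0.31, adjusted p = 0.0688).

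Robo2, a Slit receptor of retinal ganglion cell axons, stood at 61.7, 60.9, 61.2 and 62.8 CPM in control, 32.4, 29.8, 24.6 and 33.2 at day 3, 28.0, 25.1, 36.5 and 38.2 at day 7, and 22.7, 47.6, 39.4 and 52.2 at day 14. The controls were close together, and all 12 later libraries lay below them, with day 14 replicate 1 the lowest of all. The log2 fold change was -1.04 (SE 0.21, adjusted p = 0.0126) at day 3 and -0.95 (SE 0.21, adjusted p = 0.0183) at day 7 in edgeR, a 2.06-fold and a 1.93-fold lower level. At day 14 it was -0.61 (SE 0.21, adjusted p = 0.110). Slit2, the most abundant Slit per length, stood at 123 ± 9.98 CPM in control and 73.1 ± 14.97, 83.2 ± 27.2 and 94.5 ± 37.5 CPM on days 3, 7 and 14 (SD, n = 4) and was not called, with an adjusted p of 0.0784 at day 3 in edgeR. Robo1, Robo3 and the endothelial Robo4 were not called either.

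**Figure D3:**
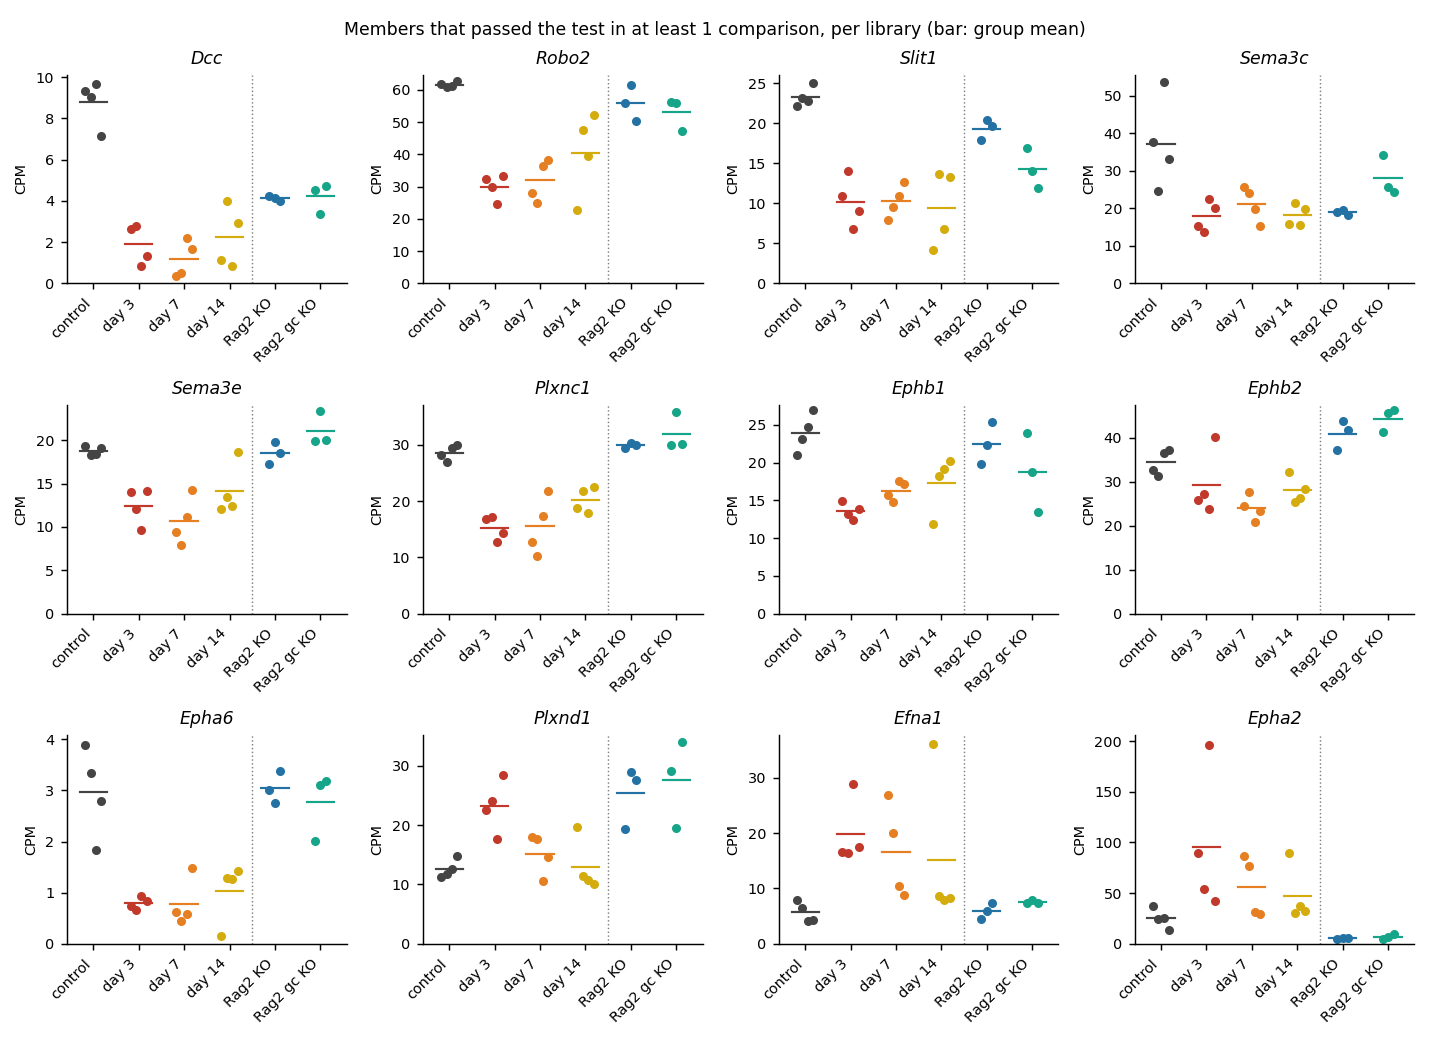
CPM of the 12 called members in each library (points) with the group mean (bar). The dotted line separates the wild-type table from the Rag2 table, which were normalised apart. In the wild-type table, every point after the laser lies below every control for Dcc, Slit1, Robo2, Plxnc1, Ephb1 and Epha6. Among the Rag2 libraries, all at day 3 after the laser, Plxnc1 at 29.9 ± 0.409 and 32.0 ± 3.33 CPM (SD, n = 3) lies within or above the range of the wild-type controls.

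Among the class 3 semaphorins, secreted repellents that also act on vessels, Sema3c fell at both times and Sema3e at day 7. Sema3c stood at 37.7, 24.5, 53.6 and 33.1 CPM in control, 15.2, 13.8, 22.5 and 19.98 at day 3, and 25.7, 24.0, 19.7 and 15.4 at day 7. The day 3 libraries lay below all controls, whereas day 7 replicate 1 lay above control replicate 2. In edgeR the log2 fold change of Sema3c was -1.06 (SE 0.23, adjusted p = 0.0171) at day 3 and -0.81 (SE 0.23, adjusted p = 0.0417) at day 7. Sema3e, the ligand of Plxnd1, was at 19.4, 18.2, 18.4 and 19.0 CPM in control, 14.02, 12.01, 9.60 and 14.2 at day 3, and 9.36, 7.86, 11.1 and 14.2 at day 7. Every day 3 and day 7 library was below every control. Its log2 fold change was -0.82 (SE 0.19, adjusted p = 0.0227) at day 7, and -0.59 (SE 0.19, adjusted p = 0.0512) at day 3, where it missed the threshold. Sema3f, the most abundant member, stood at 252 ± 16.6 CPM in control and 254 ± 22.9 at day 3 and was not called.

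No semaphorin of classes 4 to 7 was called against control in edgeR. Sema7a, which is anchored in the membrane and binds Plxnc1, was below each control in all 12 libraries after the laser. It stood at 78.6 ± 9.53 CPM in control and 51.8 ± 10.8, 49.4 ± 3.89 and 46.2 ± 16.04 CPM on days 3, 7 and 14 (SD, n = 4). These gave log2 fold changes of -0.60, -0.67 and -0.77 and adjusted p of 0.0749, 0.0657 and 0.0866 in edgeR. Sema6b, a transmembrane semaphorin, also lay below each control in all 12, at 44.6 ± 7.06 CPM in control and 30.1 ± 3.73, 33.6 ± 1.85 and 28.8 ± 10.3 CPM on days 3, 7 and 14. Sema4g stood at 62.8 ± 5.84 CPM in control and 50.4 ± 6.71 at day 3, and Sema5b at 17.7 ± 3.24 and 26.4 ± 6.60 CPM.

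Of the plexins, the signalling receptors for semaphorins, Plxnc1 fell and Plxnd1 rose. Plxnc1 stood at 28.1, 26.9, 29.4 and 29.9 CPM in control, 16.8, 17.2, 12.6 and 14.3 at day 3, 12.7, 10.2, 17.3 and 21.8 at day 7, and 18.8, 21.8, 17.9 and 22.5 at day 14. The controls did not overlap with any later group. For Plxnc1 the log2 fold change was -0.91 (SE 0.19, adjusted p = 0.0151) at day 3 and -0.88 (SE 0.19, adjusted p = 0.0178) at day 7 in edgeR. At day 14 it was -0.50 (SE 0.19, adjusted p = 0.138).

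Plxnd1, the Sema3e receptor of endothelial cells, stood at 11.2, 11.7, 12.6 and 14.8 CPM in control and 22.6, 24.0, 17.7 and 28.4 at day 3. All day 3 libraries were above all controls. The log2 fold change was 0.88 (SE 0.23, adjusted p = 0.0274 in edgeR), a 1.84-fold higher level. Plxnd1 was at 18.0, 17.6, 10.5 and 14.7 CPM at day 7 and 19.6, 11.4, 10.8 and 10.1 at day 14, overlapping with the controls. Against day 3 it was not called, with log2 fold changes of -0.61 (adjusted p = 0.745) at day 7 and -0.84 (adjusted p = 0.361) at day 14 in edgeR. Summed endothelial markers (10 genes, 0 of them at 0) ran from 230 to 305 CPM in control and 215 to 429 at day 3, and 1 of 10, Pecam1, rose. Markers of pericytes and smooth muscle (8 genes, 0 at 0) summed to 117 to 150 CPM in control and 243 to 292 at day 3 without overlap, and 1 of 8, Des, rose. Fibroblast markers (6 genes, 0 at 0) summed to 159 to 262 CPM in control and 319 to 878 at day 3, where 3 of 6 rose (Col1a1, Col1a2 and Col3a1). Markers of astrocytes and reactive glia (6 genes, 0 at 0) summed to 233 to 415 and 954 to 2004 CPM, and 4 of 6 rose (Gfap, Lcn2, Serpina3n and Vim). The part of these cell types in the Plxnd1 difference was not tested. Plxnb2, the most abundant plexin per length, stood at 224 ± 40.8 CPM in control and 350 ± 132 at day 3 (SD, n = 4) and was not called.

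In the ephrin-A system, the ligand Efna1 and the receptor Epha2 rose at day 3 and the receptor Epha6 fell at day 3 and day 7. Epha2, an Eph receptor of epithelia, stood at 37.5, 24.3, 25.9 and 13.9 CPM in control, 89.8, 53.8, 197 and 42.0 at day 3, 86.6, 76.7, 31.1 and 29.5 at day 7, and 89.2, 30.5, 36.97 and 32.4 at day 14. All day 3 libraries lay above all controls, while day 7 and day 14 each had libraries within the control range. The log2 fold change was 1.91 (SE 0.53, adjusted p = 0.0332 in edgeR) at day 3, 3.76-fold higher. Efna1 stood at 7.98, 6.49, 4.07 and 4.35 CPM in control, 16.5, 16.5, 28.8 and 17.5 at day 3, 26.8, 19.97, 10.4 and 8.90 at day 7, and 36.1, 8.56, 7.85 and 8.31 at day 14. Of the 12 libraries after the laser, 11 lay above each control. Efna1 had a log2 fold change of 1.79 (SE 0.51, adjusted p = 0.0343) at day 3, 3.46-fold higher, and 1.53 (SE 0.50, adjusted p = 0.0624) at day 7 in edgeR.

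Epha2 was highest in day 3 replicate 3, the library with the most ocular surface transcripts, and Efna1 in day 14 replicate 1. Both were high in these 2 libraries and in day 7 replicates 1 and 2. Neither gene followed the order of these transcripts throughout. The cornea and conjunctiva markers summed to 13206, 8946, 32582 and 4753 CPM in day 3 replicates 1 to 4, and the highest Epha2 and Efna1 values at day 3 were both in replicate 3. Day 3 replicate 4 had a sum within the control range of 2444 to 7363 CPM, and its Epha2 (42.0 CPM) and Efna1 (17.5 CPM) were above every control. Its lens markers, as in every day 3 library, summed to more than in any control. The part of lens tissue in these values was not tested. At day 3, 3 of 11 tested markers of this list rose (Krt4, Krt13 and Krt14). In the Rag2 libraries, where the sum was 12.5 to 21.7 CPM, Epha2 was at 5.08, 5.99 and 5.53 CPM in the Rag2 KO group and 5.26, 6.52 and 9.95 in the Rag2 gc KO group. All 6 values of Epha2 lay below the wild-type controls. Efna1 in the same libraries was at 5.92 ± 1.397 CPM with Rag2 KO and 7.62 ± 0.331 with Rag2 gc KO (SD, n = 3), beside 5.72 ± 1.85 CPM in the wild-type controls (SD, n = 4), and so was not lower than in the controls. The tables were normalised apart and not tested against each other. When lens and cornea scores entered the model as covariates, the day 3 log2 fold change of Epha2 was 0.41 (adjusted p = 0.291) and that of Efna1 was 0.63 (adjusted p = 0.401) in edgeR, and neither was called. Lens sums did not overlap between control and day 3, so laser and lens tissue cannot be told apart in this fit.

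**Figure D4:**
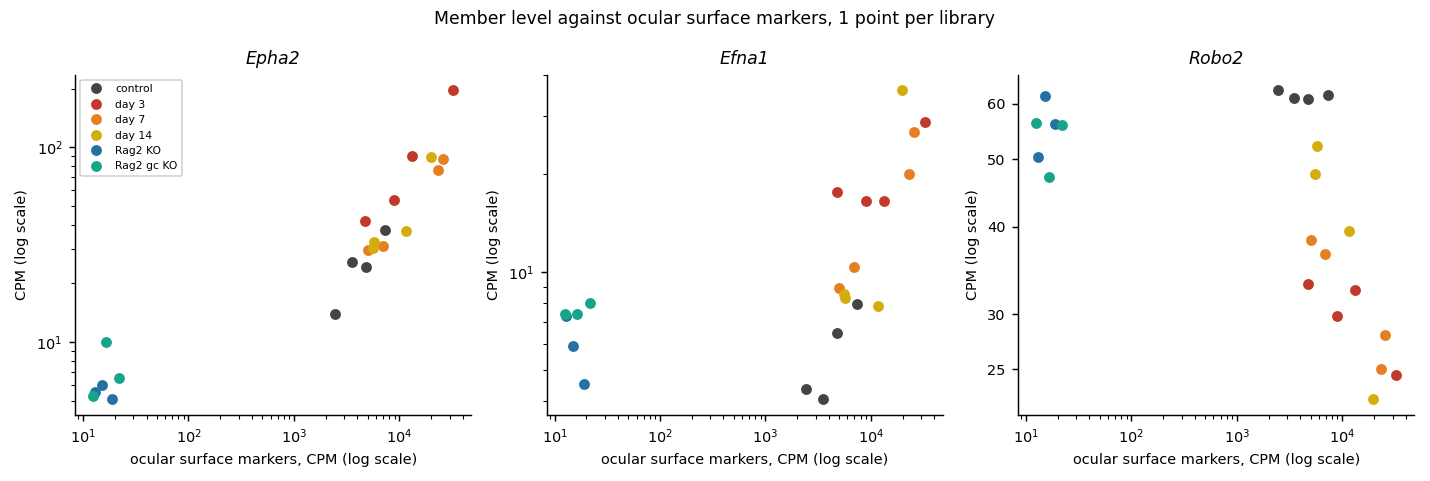
CPM of Epha2, Efna1 and Robo2 in each of the 22 libraries against the summed CPM of the cornea and conjunctiva markers, both on log scales, with colours for the groups. Epha2 is lowest in the Rag2 libraries (5.08 to 9.95 CPM) and highest in day 3 replicate 3 (197 CPM). The 4 control points of Robo2 lie between 60.9 and 62.8 CPM, above all later wild-type libraries.

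Epha6, an Eph receptor of neurons, was scarce. It stood at 3.90, 3.35, 1.84 and 2.79 CPM in control, 0.735, 0.664, 0.927 and 0.832 at day 3, 0.632, 0.451, 0.592 and 1.47 at day 7, and 0.144, 1.29, 1.27 and 1.43 at day 14. All 12 libraries after the laser were below the controls. The log2 fold change was -1.90 (SE 0.48) at both day 3 and day 7, with adjusted p of 0.0250 and 0.0279 in edgeR. Epha8, the most abundant EphA receptor per length and a retinal one, stood at 59.5 ± 2.45 CPM in control and 35.7 ± 7.04, 43.7 ± 5.34 and 38.6 ± 17.7 CPM on days 3, 7 and 14. It was below each control in all 12 later libraries but was not called, with an adjusted p of 0.0839 at day 3. Efna5, an ephrin of the retinotectal map, stood at 16.2 ± 1.021 CPM in control and 16.5 ± 4.48 at day 3.

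In the ephrin-B system, the receptor Ephb1 fell at day 3 and day 7 and Ephb2 fell at day 7. Ephb1, which directs the ipsilateral projection of the retina, stood at 21.0, 23.1, 24.8 and 26.9 CPM in control, 14.9, 13.2, 12.4 and 13.9 at day 3, 15.7, 14.8, 17.6 and 17.1 at day 7, and 11.8, 18.3, 19.1 and 20.2 at day 14. All later libraries were below the controls, and the day 3 values were close together. For Ephb1 the log2 fold change was -0.81 (SE 0.15, adjusted p = 0.0110) at day 3 and -0.56 (SE 0.15, adjusted p = 0.0352) at day 7 in edgeR. Ephb2 stood at 32.7, 31.3, 36.5 and 37.1 CPM in control, 25.8, 27.3, 23.8 and 40.1 at day 3, and 24.5, 27.8, 20.9 and 23.3 at day 7. The day 7 libraries were all below the controls, while day 3 replicate 4 was above them. Its log2 fold change at day 7 was -0.51 (SE 0.15, adjusted p = 0.0459). No ephrin-B ligand was called in edgeR. Efnb3 stood at 24.4 ± 2.87 CPM in control and 19.1 ± 1.26 at day 3. Its control level per kilobase was highest, but within the spread of Efnb1 at 7.49 ± 0.889. Efnb1 and Efnb2 lay above every control in all day 3 libraries. Their means were 25.9 and 39.8 CPM in control and 39.6 and 60.9 at day 3, with adjusted p of 0.214 and 0.174 in edgeR. Ephb6, which lacks kinase activity, stood at 29.7 ± 2.37 CPM in control and 27.0 ± 3.56 at day 3.

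Summed markers of retinal neurons and of Müller glia were also below the controls in all day 3 libraries. Summed retinal ganglion cell markers (13 genes, 0 of them at 0) ran from 737 to 1046 CPM in control, 397 to 611 at day 3 and 408 to 610 at day 7, and 3 of 13 fell at day 3 (Isl2, Nefh and Pou4f1) and 0 in edgeR at day 7. Amacrine and horizontal cell markers (13 genes, 0 at 0) summed to 811 to 930 CPM in control, 482 to 712 at day 3 and 529 to 773 at day 7, and 2 of 13 (Onecut1 and Slc6a9) fell at both times. Rod markers (9 genes) summed to 50867 to 58232 CPM in control, 25263 to 39911 at day 3 and 30675 to 56536 at day 7, where 2 libraries lay within the control range, and 0 of 9 were called in edgeR at either time. Bipolar cell markers (10 genes) summed to 1439 to 1629 CPM in control, 941 to 1243 at day 3 and 1085 to 1349 at day 7, and 1 of 10, Trpm1, fell at both times. Cone markers (8 genes) summed to 1247 to 1408, 730 to 1121 and 1003 to 1391 CPM, with 0 called in edgeR. Müller glia markers (8 genes) summed to 4357 to 4770, 3194 to 3575 and 3244 to 3935 CPM, and 2 of 8 (Car14 and Glul) fell at day 3. In tissue extracts such as these, fewer cells of a type and less RNA per cell cannot be told apart, and neither can dilution by RNA of other tissue. The part of these cell types in the falls was not tested.

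With lens and cornea scores as covariates in edgeR, 1 of 66 members was called at day 3, against 1.92% of all genes, and 5 at day 7, against 5.98%. The lens sums of control and day 3 did not overlap, so at day 3 the covariates and the laser cannot be told apart. The covariate values are therefore not laser effects freed of other tissue. The member called at day 3 was Plxnc1, with a log2 fold change of -0.84 (SE 0.17, adjusted p = 0.0238). At day 7 Dcc (-2.45, SE 0.50, adjusted p = 0.0177) and Plxnc1 (-0.71, SE 0.15, adjusted p = 0.0180) were called, joined by Plxna1, Plxnb1 and Efna5, which were not called without the covariates. Robo2 moved to -0.65 at day 3 (adjusted p = 0.103) and -0.59 at day 7 (adjusted p = 0.0620). Ephb1 moved to -0.50 (adjusted p = 0.139) and -0.31 (adjusted p = 0.231), and Slit1 to -0.53 (adjusted p = 0.375) and -0.60 (adjusted p = 0.191). Dcc at day 3 was -1.93 (adjusted p = 0.100), Epha6 was -1.58 (adjusted p = 0.216) and -1.62 (adjusted p = 0.0948), and Sema3c was -1.06 (adjusted p = 0.0966) and -0.90 (adjusted p = 0.0765).

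**Figure D5:**
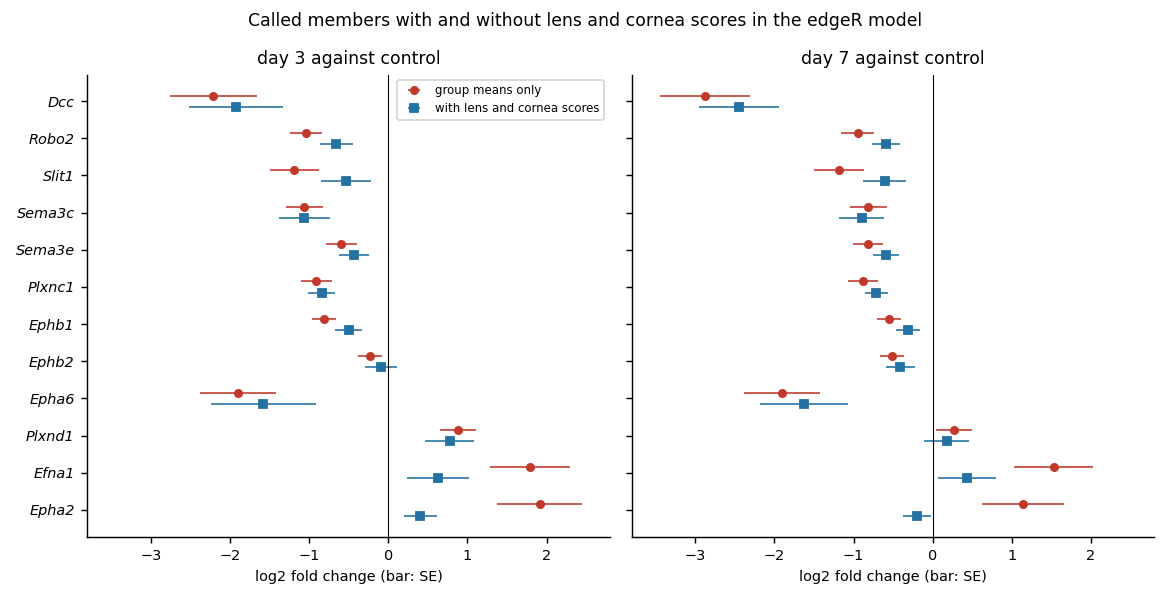
Log2 fold change (bar: SE) of the 12 called members at day 3 and day 7 against control, from group means only (circles) and with lens and cornea scores in the model (squares). At day 3 Epha2 moves from 1.91 to 0.41 and Efna1 from 1.79 to 0.63, while Plxnc1 moves from -0.91 to -0.84. Lens sums did not overlap between control and day 3, so the day 3 squares cannot tell laser from lens tissue.

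Many of the calls were lost when 1 library was left out, and such fits also hold fewer samples. At day 3, leaving out control replicate 1, 2, 3 or 4 left 4, 4, 2 and 4 members called, beside 4.55%, 2.59%, 1.54% and 3.37% of all genes. Leaving out day 3 replicate 1, 2, 3 or 4 left 5, 10, 4 and 5, beside 6.46%, 12.7%, 2.45% and 5.35%. Ephb1 and Robo2 were called in each of these 8 fits, Sema3c in 7, Plxnc1 in 6, Dcc, Epha2 and Plxnd1 in 2, and Efna1, Epha6 and Slit1 in 1. Their directions were the same in all 8. Without day 3 replicate 3, the library highest in cornea markers, the log2 fold change of Epha2 was 1.29 (adjusted p = 0.128). At day 7 the counts were 3, 4, 0 and 3 without each control, beside 2.91%, 2.24%, 0.675% and 3.27% of all genes. They were 1, 0, 5 and 8 without day 7 replicates 1 to 4, beside 1.51%, 1%, 8.43% and 15.4%. Dcc was called in 6 of these 8 fits, Plxnc1 and Robo2 in 5, Sema3e and Ephb1 in 2, Epha6, Sema3c and Slit1 in 1 and Ephb2 in 0. Day 14 replicate 1, which is in neither group, also bore on the shared spread, and without it 26 members were called at day 3 and 16 at day 7, beside 32.7% and 24.6% of all genes, a fit added after the data had been seen.

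At day 14 no member was called in edgeR, against 0.273% of all genes. At an unadjusted p under 0.05 there were 17 members, 4 higher and 13 lower, 25.8% against 24.8% of all genes, while DESeq2 called 8 (9.65% of all genes) and limma voom 2 (0.541%). In 14 members, all lower, the day 14 libraries did not overlap with the controls, 21.2% against 19.5% of all genes in either direction and 12.8% lower. The smallest p was that of Sema3c, at 18.1 ± 2.89 CPM against 37.2 ± 12.2 in control (log2 fold change -1.04, SE 0.23, adjusted p = 0.0585).

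Across the time course, 11 members lay below each of the 4 controls in all 12 libraries after the laser, 16.7% of those tested against 9.41% of all genes. They were the receptors Dcc, Unc5c, Robo2, Plxna2, Plxnc1, Epha6, Epha8 and Ephb1 and the ligands Slit1, Sema6b and Sema7a. No member lay above each control in all 12, against 3.62% of all genes. Within single times, 30 members did not overlap with control at day 3 (45.5% against 40.3% of all genes) and 19 at day 7 (28.8% against 29.7%). Of the 30, 9 were higher and 21 lower, beside 17.4% and 22.8% of all genes in these directions. Of the 19, 2 were higher and 17 lower, beside 11.3% and 18.4%.

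No member was called between the times after the laser. Day 7 against day 3 gave 0 called members in edgeR, DESeq2 and limma voom (0% of all genes in edgeR) and 1 at an unadjusted p under 0.05, Plxnd1, where 6.13% of all genes lay. Day 14 against day 3 gave 0 called in each of these tools (0.00536% of all genes in edgeR) and 6 at an unadjusted p under 0.05, where 6.77% of all genes lay. Without day 14 replicate 1, 11 members were called for day 14 against day 3, beside 6.82% of all genes.

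In Rag2 gc KO against Rag2 KO, both at day 3 after the laser, no member was called in edgeR, against 0.465% of 18923 tested genes. At an unadjusted p under 0.05 there were 16 members, 4 higher and 12 lower, 23.9% against 14.7% of all genes. DESeq2 called 7 (3.66% of all genes), limma voom 0 (0.428%), and edgeR without the filter on low counts 7 (1.56%). Leaving out Rag2 gc KO replicate 1 gave 2 called members (0.596% of all genes) and leaving out any other library gave 0. The members' median log2 fold change was -0.04, beside 0.00 over all genes. The groups did not overlap in 20 members, 10 higher and 10 lower, 29.9% against 22.1% of all genes, of which 11.5% were higher and 10.6% lower.

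The members with the smallest p in the Rag2 pair, chosen after their values were seen, were the semaphorins Sema5a, Sema7a and Sema3c and the receptor Epha10. Sema5a, a transmembrane semaphorin that restrains retinal neurites, stood at 43.7, 43.4 and 48.4 CPM in the Rag2 KO libraries and 56.3, 63.8 and 68.3 in those of Rag2 gc KO. Its log2 fold change was 0.48 (SE 0.09, approximate 95% interval 0.30 to 0.65, adjusted p = 0.0653 in edgeR). Epha10, an Eph receptor without kinase activity, stood at 50.7, 48.8 and 48.5 CPM in the Rag2 KO libraries and 40.2, 35.7 and 33.3 in those of Rag2 gc KO, a log2 fold change of -0.44 (SE 0.08, adjusted p = 0.0730). For both genes the genotypes did not overlap. Sema7a stood at 92.7 ± 9.61 and 67.9 ± 7.85 CPM and Sema3c at 19.0 ± 0.570 and 28.1 ± 5.26 CPM in Rag2 KO and Rag2 gc KO (SD, n = 3), each with an adjusted p of 0.115. Sema3c was among the members that DESeq2 called.

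Among the members that fell after the laser in wild type, none was called between the Rag2 genotypes in edgeR. Dcc had a log2 fold change of 0.03, Robo2 stood at 56.0 ± 5.64 CPM with Rag2 KO against 53.2 ± 5.17 with Rag2 gc KO, Plxnc1 at 29.9 ± 0.409 and 32.0 ± 3.33, and Ephb1 at 22.5 ± 2.78 and 18.7 ± 5.26 (SD, n = 3). Slit1 stood at 18.0, 20.4 and 19.6 CPM in the Rag2 KO libraries and 16.96, 13.98 and 11.9 in those of Rag2 gc KO, a log2 fold change of -0.44 (SE 0.14, adjusted p = 0.224 in edgeR), with no overlap. Summed retinal ganglion cell markers were at 1071 to 1210 CPM with Rag2 KO and 1006 to 1306 with Rag2 gc KO.

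Of 81 other genes of the pathway, the coreceptors, adhesion partners and cytoplasmic effectors, 80 were tested. At day 3, 5 rose and 14 fell in edgeR, beside 6.97% and 7.77% of all tested genes. At day 7, 15 fell and 0 rose, beside 6.90% and 3.62%. Their median log2 fold changes were -0.11 and -0.23. Among those that fell were Dpysl5, a collapsin response mediator of the semaphorin response, with -0.70 (SE 0.11) at day 3 and -0.66 (SE 0.11) at day 7, the Unc5-binding adhesion protein Flrt1, with -1.07 (SE 0.27) and -1.35 (SE 0.27), and the ephrin effector Kidins220, with -0.59 (SE 0.11) and -0.63 (SE 0.11). The kinases Abl2, Gsk3b and Limk1 and the actin regulator Enah also fell at both times, by 0.52 to 0.71 on the log2 scale. Those that rose at day 3 were Cd72, the lymphocyte receptor for Sema4d, with 1.74 (SE 0.37), Fes, a kinase of myeloid cells, with 1.54 (SE 0.43), and the GTPases Rras (1.39, SE 0.31), Rras2 (1.37, SE 0.43) and Cdc42 (0.53, SE 0.16).

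The neuropilin Nrp2, a class 3 semaphorin coreceptor, fell at day 7 with a log2 fold change of -0.57 (SE 0.15, adjusted p = 0.0293 in edgeR). The Robo effector Srgap1 fell at day 3 (-0.92, SE 0.29) and day 7 (-1.24, SE 0.30). No gene of this list was called at day 14 in edgeR. In the Rag2 pair Ablim1, an actin-binding protein, was lower in Rag2 gc KO (-0.41, SE 0.06, adjusted p = 0.0342).

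The authors' deposited table, whose tool is not given in the sources used here, called 34 of 67 members at day 3, 18 at day 7 and 4 at day 14. These were 50.7%, 26.9% and 5.97% of the members, against 26.4%, 18.8% and 3.65% of the genes that the table gives an adjusted p. Those genes numbered 30199, 30196 and 30435, beside 18657 that passed the count filter here. The shares are thus over unlike sets, since nearly all members passed that filter. The authors' deposited table gave Dcc log2 fold changes of -2.19, -2.87 and -1.97 on days 3, 7 and 14, and called it at each time. The other members called at day 14 in the authors' deposited table were Slit1 (-1.28), Sema3c (-1.03) and Plxnc1 (-0.48).

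Whether reads were counted by strand is not given in the sources used here, so reads of overlapping genes on opposite strands may not be told apart. Genes overlapping the 26 members named by the rule each held at most 2.25% of the counts of that member, with the highest share for Epha6. Overlapping genes held more counts than the member itself for Epha1 (224% of its counts, in Zyx), Ephb4 (238%, in Zan) and Ntn5 (1864%, in Sec1), and the levels of these 3 are uncertain.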

How the data were processed

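RNA was extracted with TRIzol from retina and choroid, and libraries were made by a sequencing company, per the labels' protocols. The authors deposited raw read counts per gene, made with featureCounts 1.5.0-p3 on mm10 per the submitters' processing notes. Which aligner, annotation and strand setting were used is not given in the sources used here. The deposited FPKM values were not used in tests. In the wild-type table the authors further deposited group means (scaled signal, per the file headers), log2 fold changes and p-values, used only where named.

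Counts were tested with edgeR 4.0.16 in R 4.3.3. Genes passed filterByExpr (minimum count 10, minimum total count 15), libraries were scaled by TMM, and a robust quasi-likelihood model of group means was fitted over the 16 wild-type libraries and separately over the 6 Rag2 libraries. P-values were adjusted over all tested genes by the Benjamini-Hochberg method, and a member was called at an adjusted p under 0.05. In edgeR the SE was the absolute log2 fold change over the square root of the test's F statistic. The 95% interval used a normal scale on this SE, so it is narrower than the test implies. CPM values use TMM-scaled totals, and CPM per kilobase divides by the deposited gene length. Covariate scores were mean log2 CPM of the lens and cornea lists with a prior count of 1. Alternatives used limma 3.58.1 (voom) and DESeq2 1.42.0. The script was tested on simulated data. Members, lists and tests were chosen with earlier results of these data known. Named with values are Dcc, members called in any comparison at 1 CPM or more in a group, and the highest control member per kilobase of each family, plus, in the other pathway list, called genes. Unc5c, Unc5d, Slit3, Efnb1, Efnb2, Ntn1, Sema5a and Epha10 were named after their values were seen. Same-numbered wild-type libraries had correlations of -0.49 to 0.46 in their deviations from the group means, and those of the Rag2 set -0.05 to 0.07, so the numbers were not taken as pairs. No replicates agreed within sampling noise.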

Additional observations from a re-analysis of the deposited data

Results flagged for a closer look

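In 104 groups of 4 wild-type libraries (26 named members in 4 groups), 11 held a library far from the other 3, a gap that chance gives in about 1 of 20 groups. Of the 11, 7 were at day 14 replicate 1, the library with the highest lens markers. There Plxnb2 was at 614 CPM, Epha2 at 89.2, Sema5b at 56.6, Efna1 at 36.1 and Plxnd1 at 19.6, above the other day 14 libraries, and Efnb3 at 10.97 and Epha6 at 0.144 below them. Efna1 was high in day 3 replicate 3 at 28.8 CPM, the library with the most cornea markers at that time. Ntn4 was high in day 7 replicate 1 at 35.7 CPM. Sema3f was high in control replicate 4 at 277 CPM, the control whose labels disagree, and Sema5b in control replicate 2 at 22.6 CPM. The part of lens and cornea tissue in these values was not tested.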

How the results depend on the processing

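At day 3 against control, leaving out 1 library of the compared groups gave 2 to 10 called members, beside 1.54% to 12.7% of all genes. At day 7 there were 0 to 8 (0.675% to 15.4%) and at day 14 0 to 0 (0.00527% to 0.838%). Day 7 against day 3 gave 0 to 0 (0% to 0.0106%) and day 14 against day 3 gave 0 to 11 (0% to 6.82%). The Rag2 pair had 0 to 2 (0.129% to 0.596%). Over all tested genes the day 3 count ran from 292 to 2409, against 2749. Fitting only the compared groups gave 32 members at day 3 and 16 at day 7, beside 40.4% and 25.3% of all genes. With lens and cornea scores as covariates there were 1 and 5, beside 1.92% and 5.98%. Dropping 3 libraries at once (replicate 3 of day 3, 2 of day 7 and 1 of day 14) gave 19 at day 3, 16 at day 7, 2 at day 14 and 6 for day 14 against day 3, beside 22.2%, 19.6%, 2.74% and 3.64%. Without day 14 replicate 1 alone, a fit added after the data had been seen, there were 26 at day 3 and 16 at day 7, beside 32.7% and 24.6%. DESeq2 gave 13 at day 3 (25.7% of all genes) and 14 at day 7 (20.2%). It gave 8 at day 14 (9.65%) and 7 in the Rag2 pair (3.66%). Limma voom gave 11 at day 3 (13.2%), 9 at day 7 (10.8%) and 2 at day 14 (0.541%). Without the filter on low counts there were 8 at day 3 (4.01%), 6 at day 7 (2.14%) and 7 in the Rag2 pair (1.56%). With the replicate number as a block, 11 members were called at day 3 (15.5% of all genes) and 8 at day 7 (9.06%). In the other comparisons 0 members were called, against at most 0.243% of all genes. The cause of these moves was not tested, except that fits without a library hold fewer samples.

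Directions turned only in comparisons in which that member was not called. Plxnd1 at day 14 had a log2 fold change of -0.0269 with library totals, -0.0193 in voom, -0.0588 with the covariates and -0.212 without the 3 libraries, and -0.213 (without day 14 replicate 1) to 0.143 when 1 library was left out. Epha2 with the covariates was at -0.200 at day 7 and -0.188 at day 14. Leaving out 1 library of the Rag2 pair gave log2 fold changes of -0.0568 to 0.170 for Dcc, -0.0585 to 0.317 for Plxnd1, -0.249 to 0.0445 for Epha6 and -0.157 to 0.00402 for Robo2. The 19 calls of members at day 3 and day 7 were refitted 342 times, of which 224 kept the call and its direction, 118 lost the call and 0 turned. With 3 or 4 libraries a group, a difference in a scarce member such as Epha6 may be missed.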
